A study of Mus musculus with 4 samples.

Results

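The miRNAs described here are the 4 mature arms of mouse miR-132 and miR-212: mmu-miR-132-3p, mmu-miR-132-5p, mmu-miR-212-3p and mmu-miR-212-5p. They were taken by name, without use of their values, from a table of 1038 known miRNAs of the medial prefrontal cortex, and all 4 were listed. The study sequenced small RNA from male mice (C57BL/6 in the labels, C57BL/6J in the study's methods) that were juvenile when the experiment began. They were older, by the adaptation, the stress or control period and the tests, when the tissue was taken. Each library was of a single mouse, with 2 libraries of control mice and 2 libraries of mice under chronic unpredictable mild stress (CUMS). CUMS is a schedule of varied mild stressors, among them social isolation, a tilted, damp or empty cage, restraint, noise and strobe light, and it was given for 3 weeks. Controls were not stressed. The CUMS mice sequenced were only those with depression-like behavior in each of the Y-maze, forced swimming and sucrose preference tests, so that stressed mice without these changes are not represented. The tissue was taken from both hemispheres the day after the tests, and the labels carry no other treatment or allele.

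A miRNA gene is transcribed as a long primary RNA that is cut to a hairpin and then to a short duplex, and either strand of the duplex, the 5p or the 3p arm, can be loaded into an Argonaute protein. The loaded miRNA pairs with messenger RNAs mainly through its seed, bases 2 to 8, and lowers their stability or translation. miR-132 and miR-212 are cut from one primary transcript. In neurons its transcription is known to rise with synaptic activity and with brain-derived neurotrophic factor through the transcription factor CREB. miR-132 is known for promoting dendrite and spine growth and for targeting Arhgap32, a GTPase-activating protein also called p250GAP.

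The mature sequences are given first because the seed divides the arms into groups. They were read from RefSeq on GRCm38.p6, 5′ to 3′, with the seed in capitals.
miR-132-3p: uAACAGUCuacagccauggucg
miR-212-3p: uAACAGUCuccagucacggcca
miR-132-5p: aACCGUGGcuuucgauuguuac
miR-212-5p: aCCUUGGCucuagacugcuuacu

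Both 3p arms carry the seed AACAGUC. Their first 9 bases are the same, and 17 of 22 positions are identical (77.3%), with the first difference at position 10. Both are therefore expected by sequence to pair with the same seed sites, and a read of either arm can still be told from the other by the 5 positions that differ. The 5p arms carry different seeds, ACCGUGG in miR-132-5p and CCUUGGC in miR-212-5p, and only 9 of 22 aligned positions are the same (40.9%). Of the 1038 listed miRNAs, 884 could be matched to RefSeq by name. Among these, the seed AACAGUC occurred in miR-132-3p and miR-212-3p alone, and each 5p seed occurred in its own arm alone.

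Both hairpins lie on the plus strand of chromosome 11 in GRCm38. The Mir212 hairpin is at chr11:75173388-75173478 and the Mir132 hairpin at chr11:75173682-75173747, with 203 bases between them. In the GENCODE M21 annotation both are within an intron of 1700016P03Rik, a noncoding transcript of 3 exons at chr11:75172560-75177633 on the same strand. The mature arms are at chr11:75173723-75173744 for miR-132-3p, chr11:75173686-75173707 for miR-132-5p, chr11:75173443-75173464 for miR-212-3p and chr11:75173403-75173425 for miR-212-5p.

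To show what the shared seed pairs with, its complement GACTGTT, for bases 2 to 8, was searched in the longest annotated 3′ untranslated region of 6 genes known as targets of miR-132 (Arhgap32, Foxo3, Sirt1, Rasa1, Ep300 and Mapt). All 6 held at least 1 match on the transcribed strand, against 2252 of 21020 genes (10.7%). These targets are known in part through that seed, so their matches are no independent evidence. A single site is given for Arhgap32 and for Foxo3 on GRCm38, as DNA on the transcribed strand with the seed match in capitals. The Arhgap32 match is at chr9:32261192-32261198 on the plus strand, and the first of both Foxo3 matches at chr10:42186163-42186169 on the minus strand. Foxo3 encodes a transcription factor of stress resistance and cell death.
Arhgap32: tgctggacagtgGACTGTTctattttt
Foxo3: taacccagcagaGACTGTTagcagccc
The messenger RNAs of these genes were not analysed here.

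The libraries held between 9589323 and 10783592 reads on known miRNAs. Libraries within a group are referred to as a and b, since they cannot be tied to replicate numbers. Control library b stood apart: miR-182-5p, a miRNA of sensory and epithelial cells, took 8.92% of its reads and 0.0373% to 0.0685% in the other 3 libraries. The summed normalised count of the 8 sensory and epithelial markers was 1004810 in it, against 4047 in Control library a and 4936 and 7329 in CUMS. Neuronal markers were abundant in every library, with a summed normalised count of 722185 to 848710 in Control and 812287 to 957777 in CUMS over miR-124-3p, miR-9-5p, miR-128-3p and miR-138-5p. The summed markers of oligodendrocytes (7693 and 8173 in Control, 6011 and 7154 in CUMS) and of choroid plexus (16942 and 22015 in Control, 15959 and 12627 in CUMS) were lower in both CUMS libraries. Both oligodendrocyte markers had this order. Over all 628 miRNAs tested, 109 (17.4%) had both CUMS libraries below both Control libraries. The choroid plexus sum was nearly all miR-204-5p, and its other marker, miR-211-5p, overlapped (124 and 20 in Control, 87 and 18 in CUMS). The sums for microglia and white blood cells, red cells and endothelium overlapped between the groups. Within these sums, miR-142a-3p and miR-126a-3p were lower in both CUMS libraries, as 17.4% of all miRNAs tested were, and the other members overlapped. The part of these differences, or of Control library b, in the values of the 4 arms was not tested except where given. In tissue, fewer cells of a type and less RNA per cell cannot be told apart.

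All 4 arms were abundant. Each was higher in both CUMS libraries than in both Control libraries, by 17.0% to 23.3% in the group means. This order was shared by 114 of the 628 miRNAs tested (18.2%), the arms among them. None of the 4 arms passed the test across all miRNAs. Levels are given as reads and as normalised counts, which are reads divided by the size factor of the library (0.944 to 1.06). The arms are 22 or 23 bases long, so no correction for length was made. How efficiently each sequence is captured in a small RNA library was not tested, and this bears on levels compared between arms. Whether capture of an arm differed between the libraries was not tested either.

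miR-132-3p, the arm to which most known functions of the pair are ascribed, had 6002 and 5727 reads in Control against 7481 and 6670 in CUMS. Its normalised counts were 5871 and 5725 in Control (5798 ± 103, SD, n = 2) against 7044 and 7067 in CUMS (7055 ± 16.4, SD, n = 2). The CUMS libraries lay closer together than the Control libraries, and the lower CUMS value was 1.20 times the higher Control value. The log2 fold change was 0.28 with a standard error of 0.13 and a 95% interval of −0.04 to 0.60 (limma, Benjamini-Hochberg adjusted p = 0.778). This interval runs from a fold of 0.975 to 1.52.

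miR-212-3p, which shares its seed, had 3902 and 3603 reads in Control against 4692 and 4023 in CUMS. The normalised counts were 3817 and 3602 in Control (3709 ± 152, SD, n = 2) against 4418 and 4262 in CUMS (4340 ± 110, SD, n = 2). The lower CUMS library was 1.12 times the higher Control library. It had the smallest difference of the 4 arms, a log2 fold change of 0.23 ± 0.14 (SE) with a 95% interval of −0.11 to 0.56 (limma, adjusted p = 0.778).

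Summed over both 3p arms, which share the seed, the normalised count was 9688 and 9326 in Control against 11462 and 11329 in CUMS. The sum had the same order as each arm. miR-132-3p made up 60.6% and 61.4% of it in Control against 61.5% and 62.4% in CUMS.

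miR-212-5p was the most abundant of the 4 arms, with 13557 and 14454 reads in Control against 18451 and 15853 in CUMS. Its normalised counts were 13261 and 14448 in Control (13854 ± 840, SD, n = 2) against 17373 and 16797 in CUMS (17085 ± 408, SD, n = 2). The lower CUMS library was 1.16 times the higher Control library. The log2 fold change was 0.30 ± 0.13 (SE), with a 95% interval of −0.02 to 0.63 (limma, adjusted p = 0.778).

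miR-132-5p was the least abundant arm, with 2192 and 1950 reads in Control against 2517 in each CUMS library. Normalised counts were 2144 and 1949 in Control (2047 ± 138, SD, n = 2) against 2370 and 2667 in CUMS (2518 ± 210, SD, n = 2). The same number of reads gave different normalised counts because the CUMS libraries differ in size factor. The lower CUMS library was 1.11 times the higher Control library, the narrowest gap of the 4 arms. The log2 fold change was 0.30 ± 0.15 (SE), with a 95% interval of −0.08 to 0.68 (limma, adjusted p = 0.778).

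**Figure D1:**
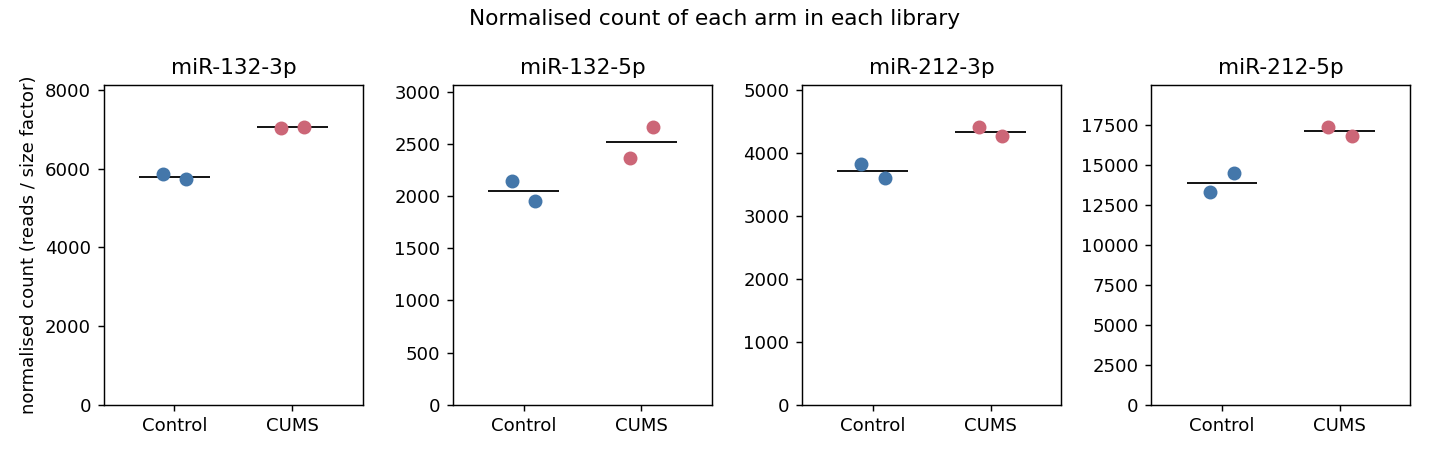
Normalised counts (vertical axes, from 0) of each arm in the single Control and CUMS libraries, each point one mouse. In each panel both CUMS points lie above both Control points, and the lower CUMS point exceeds the higher Control point by a factor of 1.11 in miR-132-5p to 1.20 in miR-132-3p.

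With 2 libraries against 2, an exact two-sided permutation test cannot go below p = 0.333, which is the value each of the 4 arms had. The separation of the groups has to be read against all miRNAs: of 628 tested, 114 (18.2%) had both CUMS libraries above both Control libraries. Among the 74 tested miRNAs with a mean level between 2283 and 15470, the range of the 4 arms, 17 (23.0%) did, and the arms are among them. The median absolute log2 fold change of these 74 was 0.14. The arms come from one transcript and from the same 4 mice, so they are not 4 separate observations of a difference.

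At an adjusted p under 0.05, limma called 0 of the 628 miRNAs (0%), with 27 at an unadjusted p under 0.05. edgeR likewise called 0, with 35 at an unadjusted p under 0.05, and DESeq2 called 1, miR-298-5p, with 25. With a fold above 1.5 and an unadjusted p under 0.05 together, 8 of 628 (1.27%) were higher in CUMS, and none of the 4 arms was among them, since their ratios of group means were 1.17 to 1.23. The median log2 fold change was 0.29 over the 4 arms and 0.02 over all miRNAs tested, whose median absolute value was 0.24. Between 20.2% and 24.2% of all miRNAs tested had a larger log2 fold change than an arm. Without Control library b, the log2 fold changes were 0.27 for miR-132-3p, 0.23 for miR-132-5p, 0.19 for miR-212-3p and 0.37 for miR-212-5p. By p, the arms stood 34th (miR-212-5p), 49th (miR-132-3p), 71st (miR-132-5p) and 107th (miR-212-3p) of 628.

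**Figure D2:**
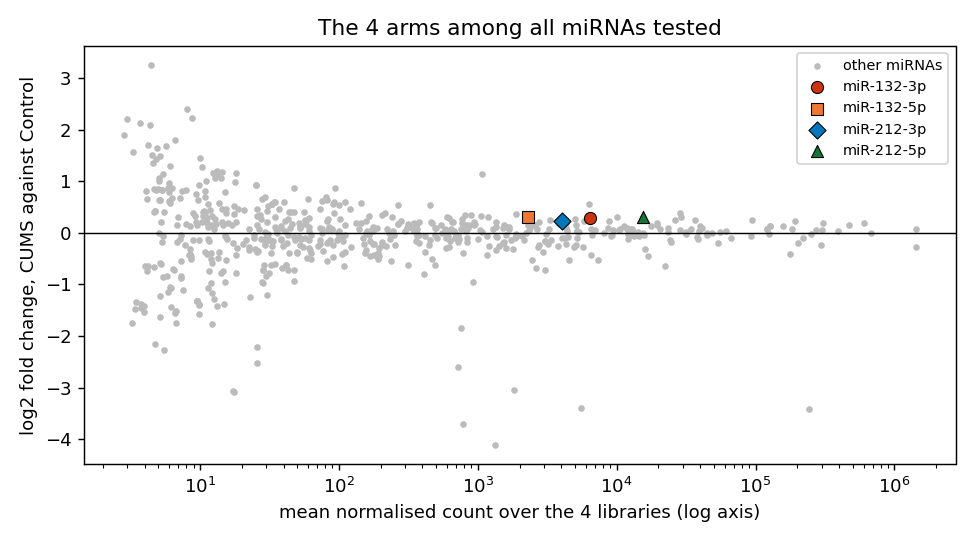
Log2 fold change of CUMS against Control (vertical axis) against the mean normalised count over the 4 libraries (horizontal log axis) for the 628 miRNAs tested, with the 4 arms as large marks. The arms lie between 0.23 and 0.30, above most of the grey points at similar levels, whose spread is narrower than among rare miRNAs.

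The counting error of the arms was small beside their levels. In CPM, reads set to one common total of miRNA reads per library, miR-132-3p stood at 570 and 531 in Control against 717 and 696 in CUMS. The highest upper bound of a Control library was 584 and the lowest lower bound of a CUMS library 679 (95% Wilson intervals, which cover counting error only). The corresponding bounds were 217 and 232 for miR-132-5p, 382 and 407 for miR-212-3p, and 1362 and 1628 for miR-212-5p. The intervals of the Control libraries thus lay below those of the CUMS libraries for each arm. The limma intervals, which also hold the spread between mice, included 0. How many of all miRNAs had such separated counting intervals was not counted. CPM totals include the miR-182-5p reads of Control library b, which lowers its other CPM values. On CPM the log2 fold changes of the arms were 0.30 to 0.38, against 0.23 to 0.30 on normalised counts.

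**Figure D3:**
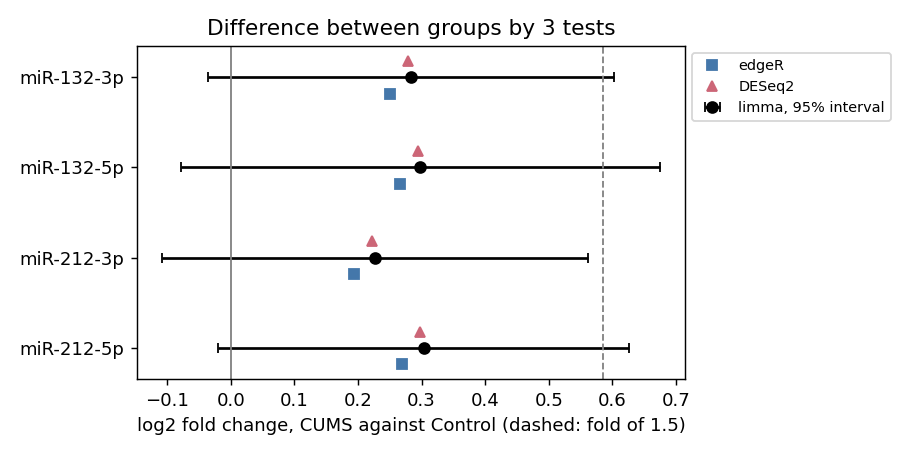
Log2 fold change of CUMS against Control for each arm, by limma with its 95% interval, and as single points by edgeR and DESeq2. Each limma estimate is positive, from 0.23 to 0.30, and each interval includes 0. The other estimates are also positive, from 0.19 to 0.27 by edgeR and from 0.22 to 0.30 by DESeq2.

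The ratio of arms within a library does not depend on the size factor. From the miR-132 hairpin, the 3p arm was the more abundant, at 2.74 and 2.94 reads per read of the 5p arm in Control against 2.97 and 2.65 in CUMS. The groups overlapped, and the difference of the mean log2 ratio was −0.01 (SE 0.10; exact permutation test, p = 1). From the miR-212 hairpin, the 5p arm was the more abundant, at 3.47 and 4.01 reads per read of the 3p arm in Control against 3.93 and 3.94 in CUMS. Control library a was lower than the other 3 libraries by more than counting error, with a 95% exact interval of 3.35 to 3.60 against lower bounds of 3.81 or more. The log2 ratio of 3p to 5p differed by −0.08 between the groups (SE 0.10; exact permutation test, p = 1). Thus the hairpins of one transcript had opposite dominant arms, in each of the 4 libraries.

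Between the hairpins, miR-132-3p exceeded miR-212-3p by 1.54 and 1.59 times in Control against 1.59 and 1.66 times in CUMS. The difference in log2 ratio was 0.06 (SE 0.04; exact permutation test, p = 0.333). For the 5p arms the order was the other way round, with miR-212-5p above miR-132-5p by 6.18 and 7.41 times in Control against 7.33 and 6.30 times in CUMS. Here the groups overlapped, with a difference in the log2 ratio of miR-132-5p to miR-212-5p of −0.01 (SE 0.17; exact permutation test, p = 1). The adjusted p over the 4 ratios was 1 for each. The smallest p this design allows is 0.333, so these tests could not have called a difference.

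**Figure D4:**
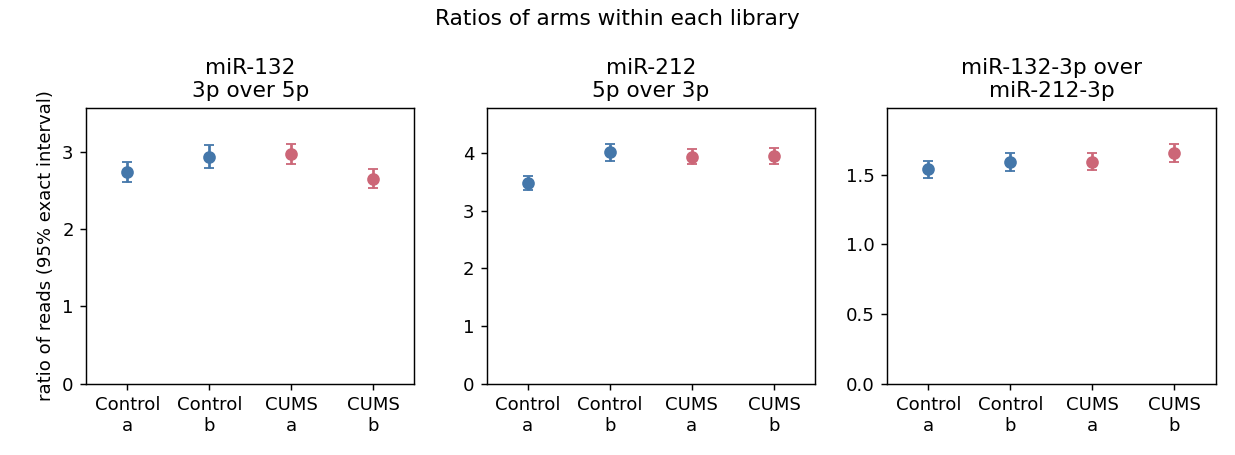
Ratios of reads between arms in each library (vertical axes, from 0), with 95% exact binomial intervals for counting error. The 3p arm of miR-132 exceeded its 5p arm 2.65 to 2.97 times, the 5p arm of miR-212 exceeded its 3p arm 3.47 to 4.01 times, and miR-132-3p exceeded miR-212-3p 1.54 to 1.66 times.

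Among the 64 hairpins with a mean of at least 100 for both arms, the 3p arm was dominant in 28 and the 5p arm in 36, by a median of 4.45 times. miR-132 (2.82 times) and miR-212 (3.83 times) were thus less one-sided than the median hairpin, with 22 and 27 hairpins still less one-sided. The absolute change of the log2 arm ratio between the groups was 0.01 for miR-132 and 0.08 for miR-212, against a median of 0.13 over the 64 hairpins. Both changes were smaller than the larger gap between libraries of one group, 0.17 for miR-132 and 0.21 for miR-212. Leaving out each library moved the difference for miR-132 over −0.10 to 0.07 and that for miR-212 over −0.18 to 0.03.

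In the order of mean level over the 4 libraries, miR-212-5p was 59th of 1038, miR-132-3p 86th, miR-212-3p 107th, and miR-132-5p was the lowest of the 4. The ranges of the 4 arms over the libraries did not overlap one another, so the order of the arms was the same in every mouse. Each of them overlapped the miRNAs next to it in the order, which were miR-30e-3p and miR-423-5p for miR-212-5p, miR-181a-2-3p and miR-128-1-5p for miR-132-3p, miR-666-5p and miR-125b-1-3p for miR-212-3p, and miR-138-1-3p and miR-330-5p for miR-132-5p. Together the 4 arms took 0.244% and 0.239% of the miRNA reads in Control against 0.318% and 0.303% in CUMS, with miR-212-5p as 52.8% to 56.2% of their sum.

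Of the 4 neuronal markers, 1 had the same order over the groups as the arms, against 114 of all 628 miRNAs tested (18.2%). miR-124-3p, a neuron-enriched miRNA abundant throughout the brain, was at 25922 and 23143 normalised counts in Control against 29393 and 35217 in CUMS, higher in both CUMS libraries, while the other 3 neuronal markers overlapped between the groups. The normalised counts of the 4 arms summed to 25092 and 25724 in Control and to 31204 and 30793 in CUMS. As a percentage of the summed neuronal markers this was 2.96% and 3.56% in Control against 3.84% and 3.22% in CUMS. The groups overlapped on this scale. Most of that marker sum in every library was miR-9-5p, at 617336 and 501726 normalised counts in Control against 546028 and 730096 in CUMS. The part of the neuronal share of the tissue in the difference of the arms was not tested.

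Other miRNAs known to be regulated by neuronal activity were compared with the arms through a list of 8: miR-134-5p, miR-379-5p, miR-329-3p, miR-381-3p, miR-485-5p, miR-184-3p, miR-188-5p and miR-146a-5p. In this list 2 had a higher and 6 a lower mean in CUMS, while 51.3% of all 628 had a higher mean. The median log2 fold change of the list was −0.11, and 0 passed limma at an adjusted or at an unadjusted p under 0.05. None of the list had both CUMS libraries above both Control libraries, against 114 of all 628 (18.2%). In the list 2, miR-134-5p and miR-485-5p, had both below, against 109 of all 628 (17.4%). Reads were few for miR-329-3p (25 to 37) and miR-188-5p (16 to 40). At least miR-134-5p, miR-381-3p and miR-379-5p share a cluster, so the 8 are not separate observations. miR-134-5p, a brain miRNA of the large Dlk1-Dio3 cluster that limits spine size, had the most negative fold change of the list, with 207 and 189 reads in Control against 146 and 139 in CUMS. Its log2 fold change was −0.46 ± 0.21 (SE; limma, adjusted p = 0.778). The most abundant of the list, miR-381-3p of the same cluster, had 38071 and 40186 reads in Control against 42559 and 31159 in CUMS, with a log2 fold change of −0.09 ± 0.15 (SE). The most positive fold change of the list was that of miR-379-5p, also of this cluster, with 120 and 70 reads in Control against 95 and 127 in CUMS. The groups overlapped (0.27 ± 0.36, SE; adjusted p = 0.886).

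The miRNAs most like miR-132-3p over the 4 libraries were sought among 303 with a mean of at least 100, by the root mean square difference of the log2 normalised counts after each was centred on its own mean. The median of this distance was 0.21. The nearest were miR-582-3p (0.03; 9357 and 8975 reads in Control, 12250 and 10246 in CUMS), miR-540-3p (0.04; 5527 and 5436 reads, then 6730 and 5935) and miR-8111 (0.04; 273 and 251 reads, then 327 and 282). Each of them was higher in both CUMS libraries, as miR-132-3p was, which follows from their choice by likeness to it. miR-212-3p was 4th at 0.04, miR-212-5p 11th at 0.06 and miR-132-5p 14th at 0.07. With 4 libraries such likeness is a description, and small distances also arise among miRNAs that vary little.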

How the data were processed

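Small RNA of 4 mice was sequenced, 2 Control and 2 CUMS. The authors removed adaptor, low-quality and other noncoding RNA reads, matched the remaining reads without mismatch to miRBase precursors, counted those overlapping a mature miRNA by at least 16 nt, and compared groups with DESeq (version not given in the sources used here). The submitters' processing notes name Bowtie, DESeq and mm10. The deposited signal is, for each group, the average of the normalised counts that DESeq gave. Its other columns hold the authors' fold changes and p-values and were not used. The value columns carry no group name and were assigned from the study's headings for the same values.

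Whole reads of each library were recovered, since a group mean over 2 libraries adds the reads of each, multiplied by a step particular to that library. Whole reads resulted for 100% of the 1038 miRNAs in either group (relative residual below 1e-09). For 2 Control miRNAs, neither of them an arm described here, a second pair of whole numbers came close. On 20 simulated columns of 1000 values 100% were recovered. Each simulated column was given the single-read values from which the recovery starts, so columns without them were not tested. limma 3.58.1 (R 4.3.3) with trend was run on log2(normalised count + 1), so that fold changes of low miRNAs are understated, for the 628 miRNAs whose mean reached 5 in either group, and p-values were adjusted by Benjamini-Hochberg over all of them. In a simulation over 628 miRNAs in which 200 were given a fold of 4, limma recovered 185 (92.5%) and called 2 others. Differences as small as those of the arms were not simulated, so sensitivity to them is not known from it. The simulated miRNAs also shared a single assumed dispersion, and no library stood apart as Control library b did. The percentage therefore holds for that setting only. Alternatives were edgeR 4.0.16, DESeq2 1.42.0, CPM, pseudocounts of 0.5 and 5, no filter, a minimum mean of 50, and leaving out each library. Python 3.11.15 with scipy 1.17.1 gave intervals and exact tests. The depth was 10533646 and 10783592 miRNA reads in Control and 10427625 and 9589323 in CUMS, so that 3 reads correspond to 0.278 to 0.313 CPM.

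Named were the 4 arms, their neighbours in level, the 3 miRNAs most like miR-132-3p, and from the list of 8 activity-regulated miRNAs the most abundant, the largest rise and the largest fall. miR-298-5p and the miR-182 and miR-200 clusters were named after their values were seen. The members and lists were chosen with earlier results of these data known. Marker lists for cell types were fixed in the same way.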

Additional observations from a re-analysis of the deposited data

How the results depend on the processing

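No paired analysis was possible because the recovered libraries cannot be tied to the replicate numbers of the labels. Each of the 4 arms kept a positive log2 fold change under 12 alternatives, at 0.25 to 0.36 for miR-132-3p, 0.21 to 0.38 for miR-132-5p, 0.19 to 0.30 for miR-212-3p and 0.24 to 0.38 for miR-212-5p, with adjusted p from 0.593 to 1. Leaving out each library gave 0.27 to 0.30, 0.21 to 0.38, 0.19 to 0.27 and 0.24 to 0.37 in the same order, the lone library being assumed to vary like those of the other group. The differences in log2 arm ratio, none of them called, ranged over −0.10 to 0.07 for miR-132, −0.18 to 0.03 for miR-212, 0.03 to 0.08 for the 3p arms and −0.14 to 0.13 for the 5p arms. An unadjusted p under 0.05 was reached for miR-132-3p and miR-212-5p under 2 alternatives each. The number of miRNAs past an unadjusted p of 0.05 and a fold of 1.5, 23 in both directions, was 51 with no filter, 5 at a minimum mean of 50, and 16 to 35 with a library left out. At an adjusted p under 0.05, DESeq2 called 1 miRNA, miR-298-5p (28801 and 26300 reads in Control, 19111 and 15806 in CUMS), and the cause was not tested. The leave-one-out fits called 0 to 10, none of them an arm described here. The count of 10, and that of 35, came without Control library a, when Control library b alone, in which the miR-182 and miR-200 clusters are high, stood for the Control group. Scaling by reads without those clusters was added after the data were seen. At this depth the counting intervals of the arms did not overlap between the groups, which was not counted over all miRNAs. With 2 mice per group no exact permutation test can pass.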
